A study of Homo sapiens with 27 samples.

Results

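The change of FAK inhibitor-treated uveal melanoma cells between day 3 and day 14 of treatment was measured in 6 of the 27 mRNA libraries of the series, chosen by their labels: 3 of cells kept for 14 days in FAKi and 3 of cells kept for 3 days. The cells are 92.1, an established uveal melanoma line that carries an activating *GNAQ* mutation, and FAKi is VS-4718 at 100 nM, a selective inhibitor of focal adhesion kinase. The control groups used beside them are the 3 DMSO libraries of day 3 and the 3 of day 14, and the remaining libraries are DMSO at day 0 and both treatments at days 7 and 21. All groups share the same line, the same *GNAQ* mutation and continual passaging, with treatment and medium renewed every 72 h. The line stems from a single tumor, so the values describe that line. The methods mention both triplicate plating and repeats of the entire experiment, and it is not stated which of these the replicate numbers in the labels count. P-values therefore measure the spread between these libraries, which may in part be technical.

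FAK, the product of *PTK2*, is a cytoplasmic tyrosine kinase that is recruited to integrin adhesions and passes adhesion signals on to the actin cytoskeleton. In *GNAQ* mutant uveal melanoma it lies downstream of the G protein through the exchange factor TRIO and promotes the activity of YAP, while a separate branch runs through phospholipase C beta and protein kinase C to ERK. Cells under prolonged kinase inhibition can adjust by shifting growth factor signaling, metabolism and stress responses. A stress response that features below is the integrated stress response, in which phosphorylation of the translation factor eIF2 alpha by stress kinases favors translation of the transcription factor ATF4, which in turn activates genes of amino acid synthesis, amino acid transport and tRNA charging. Cholesterol synthesis is governed by SREBP2, and entry into S phase by E2F factors.

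The FAKi libraries held 13135695 to 19661612 counts at day 3 and 25839235 to 33404647 at day 14, so every day 14 library was deeper than every day 3 library. Genes of the mitochondrial chromosome took 16.8% to 18.7% of the counts at day 3 and 20.7% to 22.1% at day 14. Levels in CPM, counts relative to library size, were scaled over all 27 libraries. Libraries were compared by the root mean square difference of their log2 CPM over 22009 genes. This distance averaged 0.524 within FAKi day 3, 0.645 within FAKi day 14 and 0.792 between these groups. A library outside the comparison stood close to a library in it. Replicate 1 of FAKi day 7 lay 0.373 from replicate 1 of FAKi day 14, nearer than any replicate pair of FAKi day 3, 7 or 14, with a chi-square of 1.64 per degree of freedom between their counts against 5.86 or more for the replicate pairs of these groups. The labels do not explain this closeness. The total of called genes, the counts of the main lists and of some others, and changed calls of named genes are therefore also given without FAKi day 14 replicate 1. Shares of genes at day 7 are also given without FAKi day 7 replicate 1. Among the controls, the DMSO day 3 libraries were spread more widely, with distances of 0.555 to 0.871 between them. The nearest pair of a FAKi day 3 and a DMSO day 3 library lay 0.442 apart. That is nearer than any replicate pair within FAKi day 3 (0.486 to 0.548) or DMSO day 3. The labels do not explain this either, and its part in the DMSO results and in the difference from DMSO was not tested. DMSO day 3 replicate 1 had a mitochondrial share of 18.1%, within the range of FAKi day 3, against 9.59% and 8.61% in replicates 2 and 3.

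Neither the targeted gene nor a lineage marker passed the threshold between the days. *PTK2* (ENSG00000169398.19, chromosome 8, 140657900 to 141001233, minus strand of hg38) was at 164.6, 155.3 and 159.1 CPM on day 3 and 127.7, 122.6 and 131.3 CPM on day 14, in replicates 1, 2 and 3 in this order here and below. The groups did not overlap, but the difference was small (log2 fold change -0.34, standard error 0.08, adjusted p = 0.00196, edgeR's quasi-likelihood test, p adjusted by Benjamini-Hochberg over all genes tested), and it stayed below the fold needed for a call. The inhibitor acts on the kinase and not on its transcript, so this level is no check of the treatment. *GNAQ* (chromosome 9, 77716097 to 78031811, minus strand) was at 47.7 ± 2.87 CPM at day 3 and 38.5 ± 6.45 CPM at day 14 (SD, n = 3, as for each later mean ± SD). Among the defining genes of the melanocyte lineage, *PMEL* was at 4393 ± 148 CPM and 4984 ± 172 CPM, *MLANA* at 542.2 ± 9.09 CPM and 525.6 ± 35.2 CPM, and the transcription factors *MITF* at 236.7 ± 6.69 CPM and 242.6 ± 8.7 CPM and *SOX10* at 763.8 ± 20.2 CPM and 812.3 ± 104 CPM. *S100B*, another marker of the lineage, was nearly absent at 1.03 ± 0.317 CPM and 0.504 ± 0.167 CPM. The pigment enzyme genes *DCT* and *TYRP1* had log2 fold changes of 0.11 and -0.20, the melanosome gene *GPNMB* one of -0.30 and the transcription factor gene *PAX3* one of -0.34. Of the 10 lineage markers, with *TYR* described below, 0 were called by edgeR and 0 by DESeq2, with 2 higher and 3 lower at an unadjusted p under 0.05, where a call needs an adjusted p no larger than 0.05 together with a log2 fold change above 1 or below -1 in the quasi-likelihood test.

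Between day 3 and day 14 of treatment, most genes of the integrated stress response fell, and part of the enzymes of cholesterol synthesis and of the DNA replication genes rose. Of 22382 genes tested, 1218 were called, or 5.44%. Of these, 443 were higher at day 14 (1.98% of the genes tested) and 775 were lower (3.46%), and 785 of the called genes were protein-coding. The adjusted p alone was passed by 6181 genes, 3093 higher and 3088 lower, and 8348 had an unadjusted p under 0.05. List counts of this comparison, above and below, are to be read beside these counts and shares of all 22382 genes. The levels of the 3 day 14 libraries and the 3 day 3 libraries did not overlap in 9156 genes (40.9%), so a lack of overlap in a single gene is common. Without FAKi day 14 replicate 1, 1283 genes were called. The median log2 fold change over all genes tested was 0.01. In bulk RNA, fewer cells of a kind and less RNA per cell cannot be told apart, and this holds for every change described here.

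**Figure D1:**
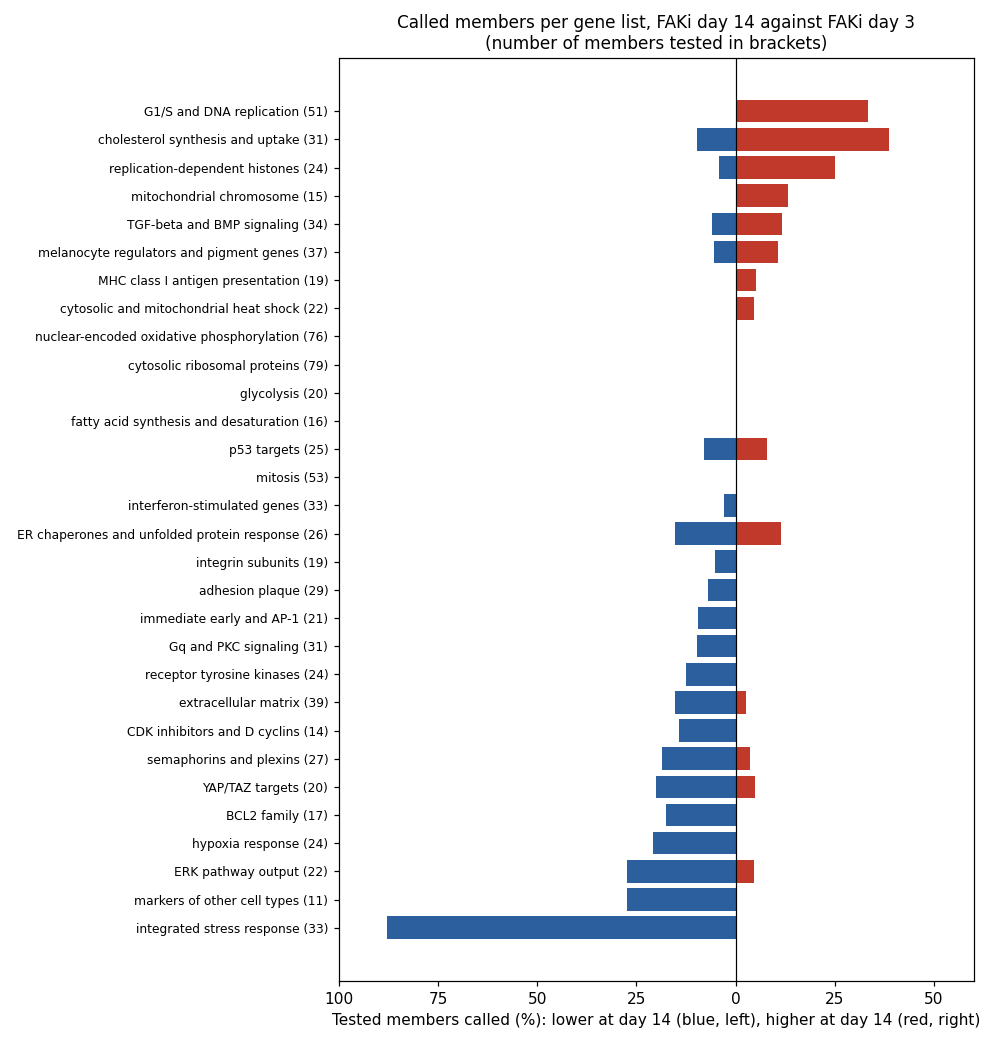
Share of the tested members of each of 30 gene lists that were called between FAKi day 14 and FAKi day 3, with members lower at day 14 as blue bars to the left and members higher at day 14 as red bars to the right of 0. The integrated stress response stands apart with 29 of 33 members lower, and the cholesterol and DNA replication lists have the most members higher, 12 of 31 and 17 of 51.

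Genes of the integrated stress response were lower at day 14 in 29 of 33 cases. The list has 34 genes, of which 33 passed the filter of at least 20 counts over the libraries compared. Of these 33, 29 were called lower and 0 higher, against 3.46% and 1.98% of all genes, and the median log2 fold change of the list was -2.30. At the adjusted p alone, 31 members were lower and 1 was higher, and DESeq2 called 28 lower and 0 higher. Without FAKi day 14 replicate 1 the count was again 29.

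The gene with the largest fall among the protein-coding genes considered was *ASNS* (ENSG00000070669.17, chromosome 7, 97852128 to 97872131, minus strand), which encodes asparagine synthetase. It was at 338.5, 356.7 and 324.3 CPM on day 3 and 10.8, 11.9 and 14.3 CPM on day 14. All day 14 libraries lay far below all day 3 libraries, and the gene was 27.8-fold lower (log2 fold change -4.80, standard error 0.11, adjusted p = 1.23e-17). Another gene, ENSG00000284707, covers 82% of its exon bases on the same strand in GENCODE 44, so reads of this locus could be split between them. *SLC7A11* (chromosome 4, 138164097 to 138242349, minus strand), the cystine and glutamate exchanger that feeds glutathione synthesis, was at 126.3, 154.2 and 126 CPM on day 3 and 4.72, 5.29 and 6.07 CPM on day 14 and so differed by 25.6-fold without overlap (log2 fold change -4.68, standard error 0.12, adjusted p = 1.73e-16). *CHAC1* (chromosome 15, 40953471 to 40956512, plus strand), a glutathione-degrading enzyme, was at 155.6, 177 and 182.3 CPM on day 3 and 10.1, 7.898 and 8.11 CPM on day 14. Its groups were likewise far apart (log2 fold change -4.31, standard error 0.11, adjusted p = 1.73e-16).

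Regulators of the response fell as well. *ATF4*, its central transcription factor, was at 1074, 1022 and 1076 CPM on day 3 and 301.8, 294.3 and 285.3 CPM on day 14, with every day 14 library below every day 3 library (log2 fold change -1.86, standard error 0.07, adjusted p = 4.29e-14). *DDIT3*, which encodes CHOP, had a log2 fold change of -2.13, the pseudokinase gene *TRIB3* one of -3.44, the cofactor gene *NUPR1* one of -3.03 and the transcription factor genes *ATF3* and *CEBPB* ones of -2.39 and -2.23. All 5 were called. *TRIB3* was at 176.4, 186 and 164 CPM on day 3 and 16.3, 15.8 and 16.8 CPM on day 14, again without overlap. *PPP1R15A*, whose product restores translation by dephosphorylating eIF2 alpha, had a log2 fold change of -0.86 and did not reach the fold for a call (adjusted p = 3.17e-07). *ATF5*, a paralog of *ATF4*, was the only member with a positive value, at 0.35 (adjusted p = 0.0250).

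The metabolic targets of ATF4 fell too. The serine synthesis genes *PSAT1* and *PSPH* had log2 fold changes of -2.54 and -2.01, and the mitochondrial folate enzymes *MTHFD2*, *ALDH1L2* and *SHMT2* ones of -2.43, -2.53 and -1.43. Each was called lower. *PSAT1* was at 399.6, 398.4 and 386.1 CPM on day 3 and 63.8, 72.2 and 69.2 CPM on day 14, a clear separation. The tRNA synthetase genes *WARS1*, *GARS1*, *CARS1*, *AARS1* and *MARS1* had log2 fold changes of -2.52, -2.30, -2.09, -1.88 and -1.62, and all were called lower. Among the amino acid transporters, *SLC7A1* (-1.75) and *SLC3A2* (-1.14) were called, while *SLC7A5* (-0.99) passed the adjusted p but not the fold, which it passed without FAKi day 3 replicate 3 or FAKi day 14 replicate 1 (-1.03 each). *CTH*, which encodes the cysteine-forming enzyme cystathionine gamma-lyase and is not in the list, was at 75.7, 81.6 and 75.5 CPM on day 3 and 6.89, 6.33 and 8.503 CPM on day 14 (log2 fold change -3.44, standard error 0.11, adjusted p = 6.08e-15).

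Genes of secreted products of the same list were lower as well. *GDF15*, a hormone of cell stress, was at 13.1, 13.3 and 11.8 CPM on day 3 and 1.17, 0.313 and 0.314 CPM on day 14, and *STC2*, which encodes stanniocalcin 2, was at 70.1, 83.6 and 74.7 CPM on day 3 and 7.28, 8.73 and 8.699 CPM on day 14. Neither gene overlapped between the days (*GDF15*: log2 fold change -4.34, standard error 0.30, adjusted p = 7.96e-10; *STC2*: log2 fold change -3.22, standard error 0.11, adjusted p = 1.03e-14). *FGF21* was called on 18 counts at day 3 and 3 at day 14 in all, so its size is poorly determined (log2 fold change -3.24, standard error 1.13, adjusted p = 0.0382), and it lost its call without FAKi day 14 replicate 2 (-2.73) or 3 (-2.79). *VLDLR*, a lipoprotein receptor gene, was called at -1.04 and lost its call without FAKi day 3 replicate 3 (-0.98). In GENCODE 44, exons of other genes on the opposite strand cover 33.2% of the exon bases of *DDIT3* and 36.8% of those of *MTHFD2*, and whether the counting used strand is not stated.

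**Figure D2:**
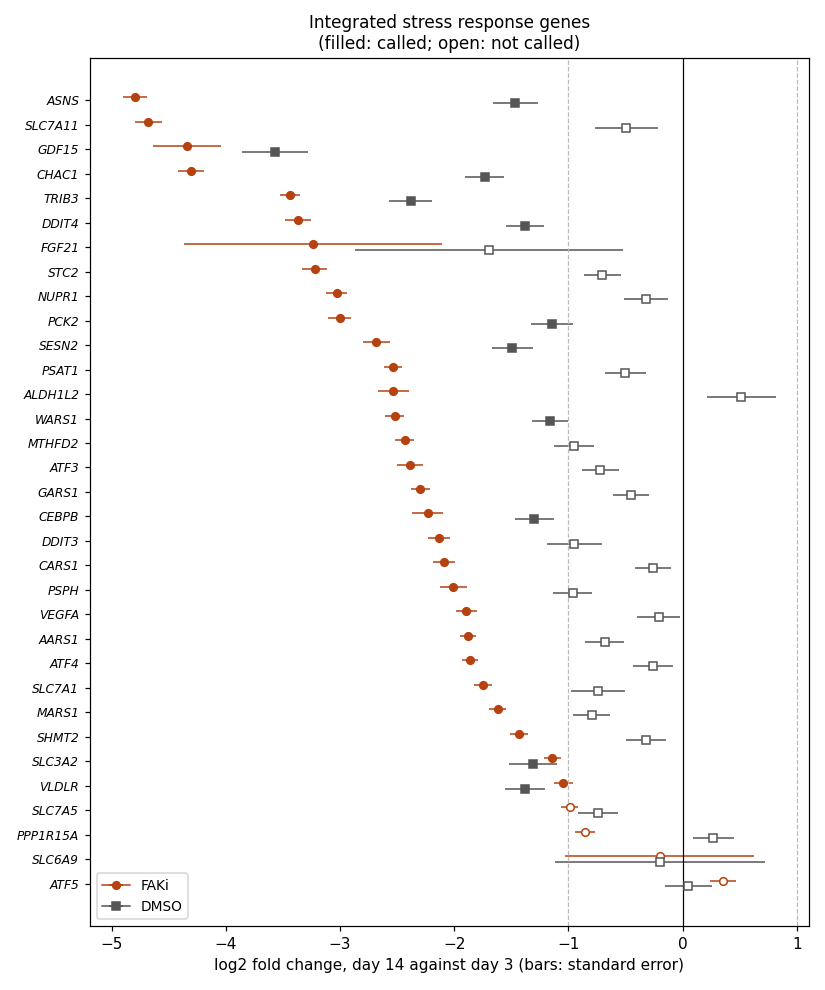
Log2 fold change from day 3 to day 14 of the 33 tested integrated stress response genes in FAKi (circles) and in DMSO (squares), with standard errors as bars, filled where called and open where not. The FAKi values reach from -4.80 for ASNS to 0.35 for ATF5, and most DMSO values lie to the right of them.

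In DMSO, 2392 of 23846 genes were called between day 3 and day 14 (10.0%), 986 higher (4.13%) and 1406 lower (5.90%). At the adjusted p alone, 1938 genes were higher and 2597 lower. Of 34 integrated stress response genes tested there, 11 were called lower and 0 higher, with a median log2 fold change of -0.77, and 20 were lower and 0 higher at the adjusted p alone. *ASNS* was at 349.8, 492.3 and 537.6 CPM in the DMSO libraries of day 3 and 171.8, 157.9 and 174.9 CPM in those of day 14 (log2 fold change -1.46, standard error 0.20, adjusted p = 0.00162). *SLC7A11* was at 122, 84.5 and 52.8 CPM and 47.6, 67.6 and 70.5 CPM in DMSO, where the groups overlapped (log2 fold change -0.49, standard error 0.28, adjusted p = 0.236). The difference between the FAKi change and the DMSO change was tested as an interaction over the 12 libraries. It was called for 1104 of 25523 genes (4.33%), with the FAKi change the higher in 567 (2.22%) and the lower in 537 (2.10%). This count depended on single libraries. It was 2787 without DMSO day 3 replicate 1 and 658 without DMSO day 3 replicate 3, and it was 550 and 577 without FAKi day 3 replicates 2 and 3 and 566 and 562 without FAKi day 14 replicates 1 and 2. The DMSO count was 1352 and 1517 without DMSO day 3 replicates 2 and 3 and 1343 without DMSO day 14 replicate 2.

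In this test of the difference, 24 of 34 integrated stress response genes were called lower and 0 higher, with a median of -1.29. The values were -4.19 for *SLC7A11* (adjusted p = 1.36e-06), -3.35 for *ASNS* (adjusted p = 4.92e-07), -2.72 for *CTH*, -2.59 for *CHAC1* and -2.53 for *STC2*. Without FAKi day 14 replicate 1 the count was 25 of 34, without DMSO day 3 replicate 1 it was 21, and over all alternatives it was between 18 and 25. *GDF15* fell in FAKi and in DMSO and its difference was not called (difference of log2 fold changes -0.80, standard error 0.48, adjusted p = 0.327), as it was not for *SLC3A2* (0.15) and *VLDLR* (0.32).

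ATF4 and C/EBP factors bind a composite element, the C/EBP-ATF response element or CARE, with the letters TGATGNAA. It was searched on both strands in RefSeq promoter sequences of GRCh38.p14 that run from 250 bases before to 50 bases after the gene start. Of the 29 called members, 23 had such a sequence, and 9 of these held a match (39.1%), against 3.67% of 27305 promoters and 1.71% of the 12151 promoters of tested genes. Of the other 4 tested members, 0 held a match. The promoters of *ASNS* and *CHAC1*, named above for their falls, are shown with the match in capitals, which in *CHAC1* reads on the reverse strand.
ASNS promoter, chr7:97872359-97872658, minus strand: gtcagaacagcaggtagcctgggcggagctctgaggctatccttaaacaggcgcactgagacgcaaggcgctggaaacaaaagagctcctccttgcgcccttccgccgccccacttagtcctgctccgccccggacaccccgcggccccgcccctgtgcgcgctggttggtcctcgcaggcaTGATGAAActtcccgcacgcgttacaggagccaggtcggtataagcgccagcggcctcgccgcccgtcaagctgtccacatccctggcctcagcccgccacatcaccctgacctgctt
CHAC1 promoter, chr15:40953221-40953520, plus strand: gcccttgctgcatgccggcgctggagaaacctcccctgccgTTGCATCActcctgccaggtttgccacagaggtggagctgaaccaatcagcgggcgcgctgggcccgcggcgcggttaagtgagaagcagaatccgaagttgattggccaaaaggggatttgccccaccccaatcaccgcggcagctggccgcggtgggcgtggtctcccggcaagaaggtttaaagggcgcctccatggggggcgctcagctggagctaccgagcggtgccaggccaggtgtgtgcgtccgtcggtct
The match starts 68 bases before the gene start in *ASNS* and 209 bases before it in *CHAC1*.

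The other 7 called members with a match are shown by their sites alone, each with up to 10 bases on both sides and read along the strand named, so that the variable letter of the element can be compared.
AARS1 site, chr16:70289676-70289703, plus strand: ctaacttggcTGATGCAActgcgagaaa
ATF3 site, chr1:212565206-212565233, plus strand: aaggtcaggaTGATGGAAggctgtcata
CARS1 site, chr11:3057408-3057435, plus strand: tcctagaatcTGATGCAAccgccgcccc
FGF21 site, chr19:48755460-48755487, minus strand: tcctcctcccTGATGCAAtcctggtgtt
MARS1 site, chr12:57488054-57488081, minus strand: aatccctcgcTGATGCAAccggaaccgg
SLC3A2 site, chr11:62881726-62881748, minus strand: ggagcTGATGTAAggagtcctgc
SLC7A1 site, chr13:29595664-29595691, minus strand: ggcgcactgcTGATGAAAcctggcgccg
A match is a description of the sequence and does not show that a factor binds there.

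Many enzymes of cholesterol synthesis rose. Of 31 members of the cholesterol list tested, 12 were called higher and 3 lower, with a median log2 fold change of 0.66, and 21 were higher at the adjusted p alone. The genes called higher run along the mevalonate pathway and the later sterol steps. *HMGCS1* (ENSG00000112972.15, chromosome 5, 43287470 to 43313412, minus strand), which encodes the synthase that makes HMG-CoA, was at 43.5, 54.1 and 56.6 CPM on day 3 and 357.3, 363.1 and 382.4 CPM on day 14. No day 3 library came near the day 14 libraries (log2 fold change 2.83, standard error 0.10, adjusted p = 9.45e-15). Downstream, *MVK*, *MVD*, *IDI1* and *FDPS* had log2 fold changes of 1.04, 1.83, 1.52 and 1.24, and all were called. *MVK* lost its call without FAKi day 3 replicate 1 (0.94) or FAKi day 14 replicate 1 (0.97).

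In the sterol steps, *HSD17B7* was at 4.23, 5.55 and 3.002 CPM on day 3 and 18.6, 19.2 and 24.7 CPM on day 14 without overlap (log2 fold change 2.28, standard error 0.18, adjusted p = 5.29e-09), and *CYP51A1*, *MSMO1*, *NSDHL* and *EBP* had log2 fold changes of 1.26, 1.501, 1.51 and 1.03. *ACAT2*, which makes the acetoacetyl-CoA that enters the pathway, was called as well (1.27). *EBP* lost its call without FAKi day 3 replicate 1 (0.92) or FAKi day 14 replicate 1 (0.95). *SQLE* and *DHCR7* passed the adjusted p at 0.83 and 0.83 but not the fold. The 3 genes called lower do other work. *ABCA1*, which exports cholesterol and is a target of the oxysterol receptor LXR, was at 45.8, 48.7 and 43.9 CPM on day 3 and 7.52, 6.75 and 6.896 CPM on day 14 (log2 fold change -2.72, standard error 0.11, adjusted p = 1.13e-13). *SREBF1*, which encodes the fatty acid regulator SREBP1 and is an LXR target as well, was at 342.7, 316.5 and 314.9 CPM on day 3 and 114, 118.5 and 92.1 CPM on day 14 (log2 fold change -1.60, standard error 0.09, adjusted p = 3.17e-11). *ABCG1*, another exporter, had 38 counts at day 3 and 9 at day 14 in all and lost its call without any 1 of 5 libraries (all 3 of FAKi day 3, and FAKi day 14 replicates 1 and 2), where its log2 fold change was between -2.86 and -2.16. Fatty acid synthesis genes had 0 of 16 called by edgeR's quasi-likelihood test and 0 by DESeq2, with 7 higher and 6 lower at an unadjusted p under 0.05. The smallest p of that list was that of the elongase gene *ELOVL6* (0.88, adjusted p = 2.08e-07).

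**Figure D3:**
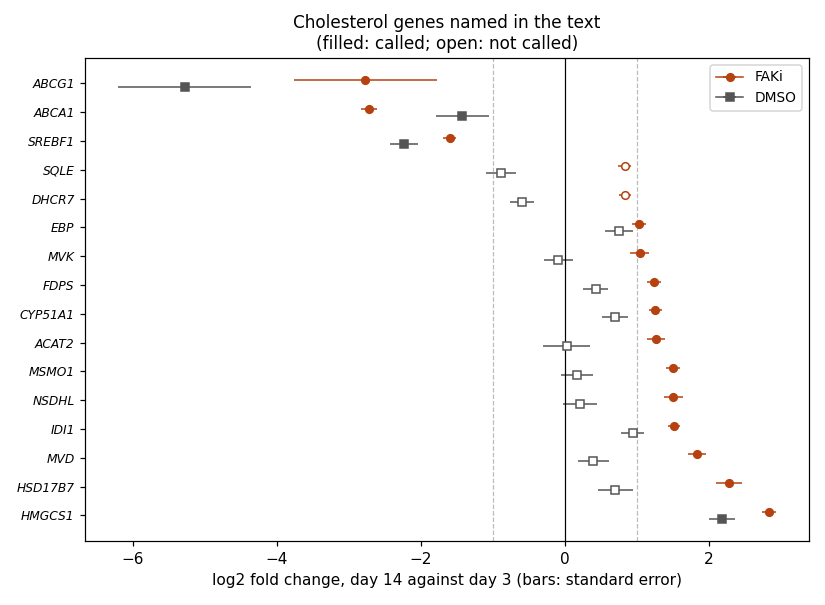
Log2 fold change from day 3 to day 14 of 16 named genes of the cholesterol list in FAKi (circles) and DMSO (squares), with standard errors as bars, filled where called and open where not. The 11 genes shown as called higher in FAKi lie between 1.03 and 2.83, and HMGCS1 is the one also called higher in DMSO.

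In DMSO, 1 cholesterol gene was called higher and 5 lower of 31, with a median log2 fold change of 0.03. The 5 called lower include *ABCA1*, *SREBF1* and *ABCG1*, the 3 genes called lower in FAKi. The control change of *HMGCS1* was 2.18 (adjusted p = 3.13e-04), so this gene rose in both, and its difference was not called (0.63, adjusted p = 0.0623). The difference was called higher for 9 genes of the list and lower for 0, among them *SQLE* at 1.70 (adjusted p = 4.49e-04), *HSD17B7* at 1.56, *MVD* at 1.42 and *DHCR7* at 1.41. *SQLE* was at 307.3, 512.5 and 411.6 CPM in the DMSO libraries of day 3 and 232.1, 227.3 and 212.8 CPM in those of day 14, against 232.2, 176.9 and 184.5 CPM on day 3 and 339.5, 345.2 and 380.7 CPM on day 14 in FAKi. Its levels in DMSO were thus lower at day 14, and those in FAKi were higher. Without FAKi day 14 replicate 1, 10 genes were called higher in FAKi, and over all alternatives the count was between 10 and 12. The sterol regulatory element with the letters TCACNCCAC, searched in the same promoters, was found in 0 of 10 members called higher, 1 of 14 other tested members and 1.15% of all promoters. Exons of other genes cover 46.7% of the exon bases of *HMGCS1*, 39.7% of *FDPS* and 36.3% of *ACAT2* on the opposite strand, and 90.1% of *CYP51A1* and 57.1% of *EBP* on the same strand.

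Part of the DNA replication genes rose, while none of the mitosis genes was called. Of 51 genes of the G1/S transition and DNA replication, 17 were called higher and 0 lower, and 45 were higher at the adjusted p alone against 0 lower, with a median log2 fold change of 0.88. *E2F1*, which encodes a transcription factor that drives this set, was at 14.99, 17.8 and 19.9 CPM on day 3 and 63.5, 51.8 and 45.4 CPM on day 14 (log2 fold change 1.60, standard error 0.13, adjusted p = 7.23e-09). *PCNA*, the sliding clamp of DNA polymerase, was at 77.1, 98.7 and 92.7 CPM on day 3 and 271.5, 250.3 and 261.9 CPM on day 14 (log2 fold change 1.54, standard error 0.09, adjusted p = 7.84e-11). In both genes all day 14 libraries lay above all day 3 libraries. *MCM4* of the replicative helicase was at 122.1, 149.5 and 145.1 CPM on day 3 and 390.3, 374.7 and 392.7 CPM on day 14 (1.46 on the log2 scale), and the checkpoint mediator *CLSPN* was at 13.9, 16.5 and 16.6 CPM on day 3 and 43.03, 47.6 and 42.4 CPM on day 14 (1.496). *TIMELESS*, which protects replication forks, was called at 1.13. *CCNE1* and *CCNE2*, the E-type cyclins, were called at 1.04 and 1.03, and *INTS8* covers 49.0% of the exon bases of *CCNE2* on the opposite strand. *CCNE1* lost its call without FAKi day 3 replicate 1 (0.95) or FAKi day 14 replicate 3 (0.94). *FAM111B*, a protease gene expressed in S phase that was named for its size of change, was at 5.72, 10.6 and 8.53 CPM on day 3 and 39.03, 34.4 and 37.2 CPM on day 14 without overlap (log2 fold change 2.17, standard error 0.15, adjusted p = 1.27e-09).

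The count of called replication genes depended on single libraries. It was 10 without FAKi day 3 replicate 1, 21 without FAKi day 3 replicate 2 and 15 without FAKi day 14 replicate 1, while the median stayed between 0.79 and 0.92. In DMSO, 10 of the 51 genes were called higher and 0 lower, with a median of 0.58. The difference between the FAKi and DMSO changes was called for 0 of them by edgeR's quasi-likelihood test and for 0 by DESeq2, with 9 higher and 1 lower at an unadjusted p under 0.05. Over all 25523 genes tested for the difference, 6367 had such a p. E2F motifs (TTTCCCGC or TTTGGCGC, either strand) were found in 6 of 12 called members with a promoter sequence, in 13 of 29 other members (44.8%) and in 2.31% of all promoters. The proximal promoter sites of *PCNA* and *E2F1* are shown with the motif in capitals.
PCNA site, chr20:5126664-5126691, plus strand: acgcacgcctTTTCCCGCccctgacgct
E2F1 site, chr20:33686388-33686415, minus strand: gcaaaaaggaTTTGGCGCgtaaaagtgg
Both lie within 60 bases before the gene start, 59 and 20 bases from it.

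Of 53 genes of mitosis, 0 were called by edgeR's quasi-likelihood test and 0 by DESeq2, with 14 higher and 15 lower at an unadjusted p under 0.05 and a median log2 fold change of 0.01. Over all 22382 genes tested, 8348 had such a p. *FOXM1*, which encodes a transcription factor of the G2 phase, had the smallest p of the list, at 0.85 (adjusted p = 7.12e-07). In DMSO, 9 genes of this list were called higher and 1 lower with a median of 0.60. The first of these counts was 16 without DMSO day 3 replicate 1, 5 without DMSO day 3 replicate 2, 4 without DMSO day 14 replicate 2 and 5 without DMSO day 14 replicate 3, and *CDC20*, the gene called lower, lost its call without DMSO day 3 replicate 3. The difference was called lower in 6 genes, among them *TOP2A* and *CENPF*, but this count too rested on single libraries. It was 14 without DMSO day 3 replicate 1 and 3 without FAKi day 14 replicate 3. It was 2 when replicate 2 or 3 of FAKi day 3 was left out, and likewise for replicate 1 or 2 of FAKi day 14, for replicate 3 of DMSO day 3 and for replicate 2 or 3 of DMSO day 14. Of 24 replication-dependent histone genes tested, 6 were called higher and 1 lower. *H2BC12* was at 6.68, 5.41 and 3.27 CPM on day 3 and 12.4, 12.4 and 13.4 CPM on day 14 (log2 fold change 1.28, standard error 0.19, adjusted p = 2.38e-05), *H2BC5* at 1.42, *H2AC6* at 1.24 and *H2BC21* at 1.26 on the log2 scale. The gene called lower was *H4C12* (-2.60), which lost its call without FAKi day 3 replicates 1 or 2 or FAKi day 14 replicates 1 or 2, where its value was between -2.53 and -2.04. Such transcripts mostly lack a poly(A) tail and have near-identical copies, so their levels in mRNA libraries are uncertain. Among CDK inhibitors and D cyclins, *CDKN1C*, which encodes the CDK inhibitor p57, was at 8.55, 8.07 and 9.35 CPM on day 3 and 2.35, 1.64 and 2.51 CPM on day 14 without overlap (log2 fold change -2.01, standard error 0.20, adjusted p = 2.33e-07). *CDKN1C* was called lower in DMSO too, and its difference was not called. *CDK6* was called at -1.08, but not without FAKi day 14 replicate 2, where it was at -0.98. The remaining 12 genes of this list were not called, and *CCND1*, a target of ERK, was at -0.96 (adjusted p = 3.71e-09).

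Part of the ERK pathway output genes fell. Of 22 members, 6 were called lower and 1 higher, with a median log2 fold change of -0.60, and 13 were lower at the adjusted p alone. *ETV4* (chromosome 17, 43527846 to 43545671, minus strand), a PEA3 family transcription factor that is induced by ERK, was at 112.4, 111 and 95.4 CPM on day 3 and 13.1, 12.6 and 13.5 CPM on day 14. Its groups lay far apart (log2 fold change -3.04, standard error 0.10, adjusted p = 4.21e-15). *ETV5* of the same family was at 154.1, 160.5 and 138 CPM on day 3 and 41.6, 45.4 and 44.8 CPM on day 14 (log2 fold change -1.79, standard error 0.09, adjusted p = 2.48e-12). The feedback inhibitors *DUSP6*, a phosphatase of ERK, and *SPRY4* were at -1.39 and -1.36 on the log2 scale, and *EPHA2* and *PHLDA1* at -1.44 and -1.13. The member called higher was *EPHA4*, described below. The other feedback genes *DUSP4* (-0.44), *SPRY2* (-0.59) and *SPRED1* (-0.59) passed the adjusted p only, as did *MYC* (-0.74). *EGR1* was at -0.35 with an adjusted p of 0.137.

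In DMSO, 4 ERK output genes were called lower and 2 higher of 22, with a median log2 fold change of -0.74 against -0.60 in FAKi, and the median of the difference was -0.21. The difference was called lower in 6 and higher in 1, with *ETV4* at -1.92 (adjusted p = 2.14e-05), *ETV5* at -1.48 (adjusted p = 4.95e-04) and *EGR1* in the other direction at 1.69 (adjusted p = 0.0183). *EGR1* lost its call for the difference without FAKi day 3 replicate 1 (1.59) or 3 (1.61) or FAKi day 14 replicate 1 (1.53). Over all alternatives the count of genes with the difference called lower was between 3 and 6. *EGR1* was at 14.5 CPM on average in the DMSO libraries of day 3 and 3.52 CPM in those of day 14, against 23.9 and 18.7 CPM in FAKi. Among 21 immediate early and AP-1 genes, *ATF3* (above) and *FOSB* (-1.18) were called lower. *FOSB* lost its call without FAKi day 3 replicate 1, where its log2 fold change was -0.85.

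Upstream of ERK, 3 of 24 genes of the receptor tyrosine kinase list were called lower and 0 higher, against 3.46% and 1.98% of all genes. Without FAKi day 14 replicate 1, 4 were called lower and 1 higher. The receptor genes *EPHA2*, called lower, and *EPHA4*, called higher, are counted with the ERK output genes and not here. *DDR2*, a collagen receptor, was at 360, 408.9 and 377.8 CPM on day 3 and 83.3, 80.3 and 84.8 CPM on day 14, with no overlap (log2 fold change -2.22, standard error 0.08, adjusted p = 2.23e-14). Its value in DMSO was -0.10, and the difference was called (difference of log2 fold changes -2.13, standard error 0.30, adjusted p = 6.62e-04). *ALK* (-1.58) and *ROR1* (-1.99) were expressed at a low level, under 5 CPM in every library of the comparison, and *ROR1* lost its call without FAKi day 3 replicate 2 (-1.73). Of 31 genes of Gq and protein kinase C signaling, 3 were called lower and 0 higher. They were *PLCB1*, a phospholipase C beta (-1.36), *RGS16*, which speeds up GTP hydrolysis on G alpha subunits (-2.17), and *DGKG*, a diacylglycerol kinase (-1.42). *RGS16* was at 7.06, 6.52 and 10.5 CPM on day 3 and 1.71, 1.91 and 1.76 CPM on day 14, and it was called lower in DMSO too (-2.63). *RGS2* was at 3.28 CPM on average at day 3 and 3.08 CPM at day 14 and was not called.

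Genes of cell adhesion, the pathway that the inhibitor targets, were called in few cases. Of 29 genes of the adhesion plaque, 2 were called lower and 0 higher, with a median log2 fold change of -0.17. At the adjusted p alone, 12 were lower and 1 was higher, against 3088 and 3093 of all 22382 genes. *FYN*, a Src family kinase that works with FAK, was at 59.4, 65.1 and 68.2 CPM on day 3 and 31.2, 27.7 and 29.8 CPM on day 14 (log2 fold change -1.13, standard error 0.09, adjusted p = 1.36e-08). *LIMS2*, which encodes an adaptor of integrin-linked kinase, was called at a low level (-2.08) and lost its call without FAKi day 3 replicate 1 (-1.85). Of 19 integrin subunit genes, 1 was called lower, the leukocyte subunit *ITGB2*, on 18 counts at day 3 and 2 at day 14 in all, and its call was lost without FAKi day 14 replicate 1 (-3.13), with the replicate block (adjusted p = 0.0682), without a count filter (adjusted p = 0.0596) and in a single fit of all 27 libraries (adjusted p = 0.0753), while DESeq2 gave it no adjusted p. The median of this list was -0.46, and 10 genes were lower and 1 was higher at the adjusted p alone. In DMSO, 0 of 29 plaque genes were called, and 3 of 19 integrin genes were called lower and 0 higher. The DMSO medians were -0.19 and -0.50. The difference between FAKi and DMSO was called for 0 plaque genes, and for integrin genes it was called higher for 1 and lower for 0.

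Of 39 extracellular matrix genes, 6 were called lower and 1 higher, with a median log2 fold change of -0.31. At the adjusted p alone, 16 were lower and 1 was higher. In DMSO, 5 of 42 were called lower and 1 higher, with a median of -0.65, and *FBLN2* was called lower in both. The difference was called lower for 1 gene, *BGN*, and higher for 1. Over all alternatives the counts called lower were 2 to 8 in DMSO and 0 to 3 for the difference. *FN1*, which encodes fibronectin, the ligand of several integrins, was at 35.7, 36.6 and 31.5 CPM on day 3 and 11.8, 12.8 and 11.8 CPM on day 14 (log2 fold change -1.52, standard error 0.11, adjusted p = 1.13e-09). *BGN*, a proteoglycan gene, was at 40.1, 32.95 and 36.3 CPM on day 3 and 13.1, 12.7 and 15.3 CPM on day 14 (log2 fold change -1.43, standard error 0.11, adjusted p = 5.63e-09). Both genes were without overlap between the days. *FBLN2*, *COL5A2* and the lysyl oxidase genes *LOX* and *LOXL2* had log2 fold changes of -1.27, -1.69, -1.67 and -1.74. *COL5A2* lost its call without FAKi day 3 replicate 1 (-1.46). *SPP1* (chromosome 4, 87975714 to 87983529, plus strand), which encodes the secreted integrin ligand osteopontin, was the gene with the largest rise among those considered. It had 9 counts at day 3 and 722 at day 14 in all and was at 0.0961, 0.296 and 0.205 CPM on day 3 and 7.097, 8.98 and 8.93 CPM on day 14 (log2 fold change 5.44, standard error 0.32, adjusted p = 8.01e-11). It rose in DMSO by a log2 fold change of 6.05 as well, to 15.6 CPM on average, and the difference was not called (adjusted p = 0.621).

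Of 20 YAP and TAZ target genes, 4 were called lower and 1 higher, with a median of -0.30. Without FAKi day 14 replicate 1, 3 were called lower and 2 higher. *AJUBA*, a LIM protein of the Hippo pathway, was at 48.6, 47.2 and 44.1 CPM on day 3 and 10.1, 12.9 and 10.7 CPM on day 14 (log2 fold change -2.07, standard error 0.11, adjusted p = 1.50e-11), and *NT5E*, the ectonucleotidase CD73, at -2.44. *DLC1*, a GTPase activating protein gene, was at -1.31, and *CRIM1* at -1.05. *CRIM1* lost its call without FAKi day 3 replicate 1 (-0.90) or FAKi day 14 replicate 1 (-0.97). *FOXF2*, a forkhead transcription factor gene, was the member that rose, at 21.1, 23.3 and 21.1 CPM on day 3 and 70.2, 64.3 and 62.5 CPM on day 14 (log2 fold change 1.58, standard error 0.10, adjusted p = 1.04e-10). In DMSO, 4 of these genes were called lower, *AJUBA* and *NT5E* among them, and 0 higher.

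Among 27 semaphorin and plexin genes, which encode guidance ligands and their receptors, 1 was called higher and 5 lower, with a median of -0.13. The receptor gene *PLXNC1*, a plexin of the melanocyte lineage, was at 76.4, 94.5 and 82.8 CPM on day 3 and 245, 268.9 and 286.2 CPM on day 14 (log2 fold change 1.65, standard error 0.09, adjusted p = 2.69e-11). The receptor gene *PLXNA2* was at 41.4, 41.98 and 36.7 CPM on day 3 and 15.7, 14.6 and 15.5 CPM on day 14 and thus fell (log2 fold change -1.40, standard error 0.10, adjusted p = 1.64e-09). Neither overlapped between the days. Of the ligands, *SEMA3A*, *SEMA5A*, *SEMA6B* and *SEMA3G* were called lower at -2.11, -1.16, -1.49 and -1.15. *SEMA3G* was below 3 CPM in every library and lost its call without FAKi day 3 replicate 1 (-1.10) or 2 (-1.13). The transmembrane ligands *SEMA6A* and *SEMA6D* were higher at the adjusted p alone. *SEMA6A* was at 692.1, 830.8 and 714.2 CPM on day 3 and 1038, 1043 and 1001 CPM on day 14 (log2 fold change 0.45, standard error 0.08, adjusted p = 1.30e-04), and *SEMA6D* at 10.8, 11.9 and 11.5 CPM on day 3 and 20.8, 22.2 and 24.3 CPM on day 14 (log2 fold change 0.97, standard error 0.12, adjusted p = 3.15e-06). *SEMA6D* passed the fold without FAKi day 3 replicate 2 (1.00) or FAKi day 14 replicate 1 (1.02). In DMSO, 3 genes were called higher, *PLXNC1* (2.34), *SEMA6A* (1.06) and *SEMA6D* (1.33), and 8 lower. Among these 8 were *PLXNA2*, *SEMA3A*, *SEMA5A* and *SEMA6B*, and the DMSO median of the list was -0.65. The difference between FAKi and DMSO was called for none of the semaphorin and plexin genes named here, and higher for 1 other gene of the list.

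Further genes were chosen for naming with earlier results of these libraries known, so they are no independent evidence of a direction. The receptor tyrosine kinase gene *EPHA4* was at 3.75, 5.55 and 4.44 CPM on day 3 and 14.7, 16.3 and 18.6 CPM on day 14 (log2 fold change 1.86, standard error 0.16, adjusted p = 3.25e-08), the hyaluronan-degrading protein gene *CEMIP* at 1.87, 1.78 and 2.32 CPM on day 3 and 7.04, 5.64 and 6.505 CPM on day 14 (log2 fold change 1.67, standard error 0.21, adjusted p = 5.29e-06) and the adhesion receptor gene *ADGRG1* at 6.25, 5.41 and 5.8 CPM on day 3 and 2.25, 2.19 and 1.69 CPM on day 14 (log2 fold change -1.51, standard error 0.21, adjusted p = 1.94e-05). *EPHA4* and *CEMIP* lay higher and *ADGRG1* lower at day 14, each without overlap. *EPHA4* was called higher in DMSO as well, and its difference was not called. *DAB2* (0.39), *ATP7A* (0.16) and *PLK2* (-0.29) were not called.

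Endoplasmic reticulum genes were called in both directions. Of 26 ER chaperone and unfolded protein response genes, 3 were called higher and 4 lower, with a median log2 fold change of 0.05. Without FAKi day 14 replicate 1, 4 were called higher and 4 lower. The chaperone gene *CALR*, which encodes calreticulin, was at 516.3, 622.2 and 514.9 CPM on day 3 and 1606, 1521 and 1454 CPM on day 14 (log2 fold change 1.46, standard error 0.08, adjusted p = 2.41e-11), and *MANF* was at 29.8, 29.5 and 34.7 CPM on day 3 and 79.2, 73.8 and 82.05 CPM on day 14 (log2 fold change 1.31, standard error 0.09, adjusted p = 1.64e-09). Both rose without overlap. *SDF2L1* was called at 1.08 and lost its call without FAKi day 3 replicate 1 (0.99) or FAKi day 14 replicate 2 (0.98). The genes called lower were those of the sensors *ATF6* (-1.22) and *ERN1* (-1.58), the transcription factor *XBP1* (-1.60) and the ER degradation factor *HERPUD1* (-1.68). *XBP1* was at 135.1, 120.1 and 140.2 CPM on day 3 and 43.7, 41.3 and 46.1 CPM on day 14, and its change in DMSO was -1.64. *SDF2L1* went opposite ways in FAKi and DMSO (-1.37 in DMSO), and its difference was called (difference of log2 fold changes 2.42, standard error 0.34, adjusted p = 6.62e-04).

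Of 22 heat shock genes, 17 were higher and 1 was lower at the adjusted p alone, with a median of 0.51, and 1 was called, *HSPA1B*. This gene of the inducible HSP70 was at 68.6, 47.1 and 46.4 CPM on day 3 and 247.8, 231 and 178.4 CPM on day 14 (log2 fold change 2.00, standard error 0.13, adjusted p = 3.39e-10), but it has the near-identical copy *HSPA1A*, between which the counting could split reads. In DMSO, 4 heat shock genes were called higher, *HSPA1B* among them, and 0 lower, and the difference was called for 0 genes of that list. Of 24 hypoxia-responsive genes, 5 were called lower and 0 higher. *VEGFA*, the vascular growth factor gene, was at 136.1, 119.1 and 135.2 CPM on day 3 and 37.4, 31.8 and 36.6 CPM on day 14 (log2 fold change -1.90, standard error 0.09, adjusted p = 2.93e-12), and *DDIT4*, an inhibitor of mTORC1, at 102.4, 117.9 and 119.1 CPM on day 3 and 11.4, 9.22 and 12.6 CPM on day 14 (log2 fold change -3.37, standard error 0.11, adjusted p = 8.57e-15). *VEGFA*, *DDIT4* and *STC2* are also in the integrated stress response list. *PDK1* (-1.33) and *LOX* are the other members. The median of the hypoxia list was -0.02, and glycolysis enzymes had 0 of 20 called by edgeR's quasi-likelihood test and 0 by DESeq2, with 10 higher and 7 lower at an unadjusted p under 0.05, the smallest p being that of hexokinase *HK1* (-0.76, adjusted p = 5.31e-07).

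Of 17 BCL2 family genes, 3 were called lower and 0 higher, all of them BH3-only inducers of apoptosis. *PMAIP1*, which encodes NOXA and can be induced by ATF4 as well as p53, was at 62.8, 64.6 and 67.97 CPM on day 3 and 13.3, 15.6 and 18.5 CPM on day 14 (log2 fold change -2.06, standard error 0.11, adjusted p = 1.87e-11). *HRK* was at 41.6, 39.3 and 39.3 CPM on day 3 and 11.97, 12.1 and 11.9 CPM on day 14 (log2 fold change -1.75, standard error 0.10, adjusted p = 4.11e-11). Neither overlapped between the days. *BCL2L11*, which encodes BIM, was called at -1.09, but not without FAKi day 3 replicate 2 (-0.99) or FAKi day 14 replicate 2 (-0.95). *PMAIP1* had a value of 0.16 in DMSO (adjusted p = 0.629), and its difference was called (difference of log2 fold changes -2.23, standard error 0.25, adjusted p = 6.61e-05). Of 25 p53 targets, *DDB2*, a DNA repair gene (1.51), and *TP53I3* (1.02) were called higher, and *GDF15* and *SESN2* (-2.68), which are integrated stress response genes too, lower. *TP53I3* lost its call without FAKi day 3 replicate 3 or FAKi day 14 replicate 1 (0.89 each). In DMSO, *DDB2* was called higher, and *GDF15* and *SESN2* lower. The difference was called lower for *SESN2* but not called for *DDB2* or *GDF15*.

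Among 37 melanocyte regulators and pigment genes, 4 were called higher and 2 lower, with a median of 0.16. *MLPH*, which links melanosomes to their motor, was at 39.7, 40.4 and 41.5 CPM on day 3 and 140.9, 145.7 and 139.9 CPM on day 14 (log2 fold change 1.80, standard error 0.08, adjusted p = 1.10e-12). *TRPM1*, a melanocyte ion channel gene, was at 16.6, 22.1 and 21.1 CPM on day 3 and 52.7, 55.99 and 62.1 CPM on day 14 (log2 fold change 1.51, standard error 0.11, adjusted p = 2.94e-09). In both genes the groups were clearly separate. The pigmentation factor *IRF4* was called at 1.86, and the transporter gene *SLC45A2* at 1.06, which lost its call without FAKi day 3 replicate 1 (0.98) or 3 (1.00). *TYR*, which encodes tyrosinase, the key enzyme of melanin synthesis, was at 246.4, 259.4 and 238 CPM on day 3 and 457.8, 493.1 and 502.5 CPM on day 14 and stayed just short of the fold (log2 fold change 0.96, standard error 0.07, adjusted p = 4.32e-09). *CAPN3* (-1.47) and the transcription factor gene *SOX5* (-1.19) were called lower. In DMSO, 10 genes of this list were called higher, among them *MLPH* (1.94), *TRPM1*, *SLC45A2* and *IRF4*. The 1 gene called lower there was *CAPN3*. For *MLPH*, *TRPM1*, *SLC45A2*, *IRF4* and *CAPN3* the difference between FAKi and DMSO was not called.

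Of 34 genes of TGF-beta and BMP signaling, 4 were called higher and 2 lower, with a median of -0.04. *NOG*, which encodes the BMP antagonist noggin, had 7 counts at day 3 and 439 at day 14 in all, and it was at 0.0480, 0.296 and 0.137 CPM on day 3 and 6.08, 4.21 and 4.54 CPM on day 14 (log2 fold change 5.04, standard error 0.41, adjusted p = 1.14e-08). It was at 0.356, 0.256 and 0.256 CPM in the DMSO libraries of day 3 and 0.472, 0.0318 and 0.131 CPM in those of day 14, so that only the FAKi libraries of day 14 were raised among these 12, and the difference was called (difference of log2 fold changes 5.47, standard error 0.95, adjusted p = 0.00329). *ID2* and *ID3*, BMP-induced inhibitors of helix-loop-helix factors, were at 1.15 and 1.13 on the log2 scale. *ID3* was at 26.8, 34.9 and 31.3 CPM on day 3 and 71, 70.7 and 62.1 CPM on day 14. *SMAD6* (1.24) lost its call without FAKi day 14 replicate 1 (0.98). *LTBP1*, which stores latent TGF-beta in the matrix, and the receptor gene *BMPR1B* were called lower at -2.54 and -1.47. In DMSO, *ID2* was called higher and *BMPR1B* lower as well, and neither had a called difference.

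Of the genes named for the size of their change that belong to no group above, *DHRS2*, a short-chain dehydrogenase gene, was at 16.96, 19.99 and 15.1 CPM on day 3 and 0.692, 1.08 and 0.353 CPM on day 14 (log2 fold change -4.59, standard error 0.24, adjusted p = 8.88e-12). *MAP1B*, a microtubule-associated protein gene of neurons, was at 10.8, 11.4 and 8.803 CPM on day 3 and 0.241, 0.905 and 0.705 CPM on day 14 (log2 fold change -4.10, standard error 0.29, adjusted p = 1.15e-09), and *L1CAM*, a neural cell adhesion gene, at 13.6, 11.03 and 9.14 CPM on day 3 and 0.782, 1.25 and 0.862 CPM on day 14 (log2 fold change -3.56, standard error 0.23, adjusted p = 2.38e-10). These 3 genes were lower in every day 14 library than in any day 3 library. In the opposite direction, *LFNG*, which encodes a glycosyltransferase that modifies Notch, was at 1.58, 1.41 and 1.64 CPM on day 3 and 5.68, 6.92 and 6.43 CPM on day 14 (log2 fold change 2.02, standard error 0.22, adjusted p = 6.31e-07), and the transporter gene *ABCC11* at 6.197, 6.15 and 7.23 CPM on day 3 and 30.6, 23.6 and 24.8 CPM on day 14 (log2 fold change 2.00, standard error 0.14, adjusted p = 7.96e-10). Both rose without overlap. *CELF6*, an RNA-binding protein gene, was called at 2.14, but another gene on the same strand covers 100.0% of its exon bases in GENCODE 44, so the source of its reads is uncertain.

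Lists on general cell functions had few members called. Of 79 cytosolic ribosomal protein genes 0 were called, and of 76 nuclear-encoded genes of oxidative phosphorylation 0, in both by edgeR's quasi-likelihood test and by DESeq2, with 11 higher and 20 lower in the first and 26 higher and 8 lower in the second list at an unadjusted p under 0.05. Such a p was found in 8348 of all 22382 genes in either direction, so the counts of both directions together do not set the lists apart. By direction, the second list leaned higher, with a median of 0.10. At the adjusted p alone, 17 of its genes were higher and 5 lower, against 3093 and 3088 of all genes. For the ribosomal protein genes these counts were 10 and 15. The members with the smallest p were *RPL21* (0.55) and *COX8A* (-0.68). In DMSO, 14 ribosomal protein genes were called lower and 1 higher, and 7 and 1 of the second list. The difference was called higher for 4 and lower for 0 ribosomal protein genes, and for 6 and 1 of the second list. Without DMSO day 14 replicate 1, 5 genes of each list were called lower in DMSO. Without FAKi day 14 replicate 1, the difference was called higher for 0 and 3. Of 15 genes of the mitochondrial chromosome, 13 were higher and 0 lower at the adjusted p alone. The median was 0.32, and 2 were called higher and 0 lower. They were the ribosomal RNA gene *MT-RNR1* (1.14) and *MT-ND6* (1.07), which lost its call without FAKi day 3 replicate 1 (0.97). In DMSO, 11 of these 15 genes were called higher, with a median of 1.30, and DESeq2 called 9. The count was 3 without DMSO day 3 replicate 2, 6 without DMSO day 14 replicate 1 and 4 without DMSO day 14 replicate 2 or 3. These genes took 18.1%, 9.59% and 8.61% of the counts in the DMSO libraries of day 3, and the part of this spread in the DMSO results was not tested. Of 33 interferon-stimulated genes 1 was called, *ISG20*, which was lower (-1.95), and of 19 genes of MHC class I presentation 1, *CALR*, which was higher.

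Markers of other cell types were checked as well. Of 22 such markers, 11 passed the count filter, and 3 were called lower and 0 higher. They were *CD68* (-1.31), *KRT18* (-1.38) and *CDH1* (-1.76), and their part in the other results was not tested. The summed level of the list was 1223 to 1336 CPM at day 3 and 987.5 to 1052 CPM at day 14, so the groups did not overlap, and *BEST1* made up most of it at 1127 and 945.3 CPM. The defining markers *KRT5* and *CDH5* were at 0 in all 6 libraries, and *EPCAM*, *PTPRC*, *COL3A1*, *KRT19*, *CD3E* and *RPE65* were at 0 in 5 of 6. The fibroblast markers *COL1A1* and *LUM*, the retinal pigment epithelium marker *RLBP1* and the epithelial marker *KRT8* were detected in all 6 libraries, at no more than 8.78, 8.66, 6.22 and 2.98 CPM, and were not called. Exons of other genes cover 94.9% of the exon bases of *CD68* on the same strand. On the opposite strand they cover 83.4% of *KRT8*, mostly by *KRT18*, 29.7% of *BEST1* and 26.5% of *KRT18*.

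The changes of treated and control cells come from separate libraries and can be set side by side. Of 22019 genes tested in both, 1205 were called in FAKi and 2314 in DMSO, and 418 were called in the same direction in both, which is 34.7% of the FAKi list and 18.1% of the DMSO list. In opposite directions, 6 genes were called. Across the 22019 genes the log2 fold changes had a Pearson correlation of 0.398 and a Spearman correlation of 0.39, which is a description, since genes are not independent replicates.

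**Figure D4:**
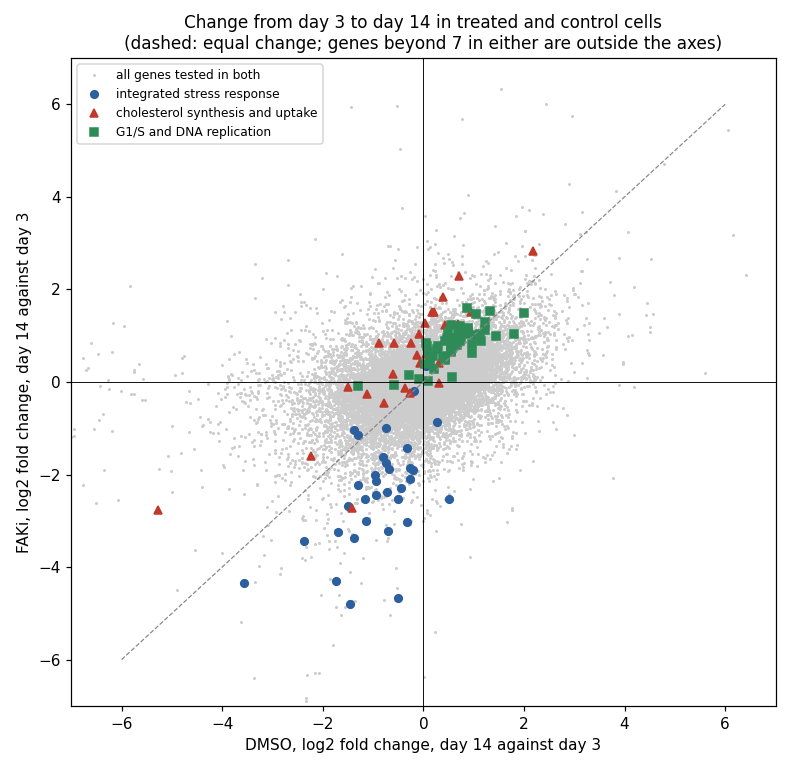
Log2 fold change from day 3 to day 14 in FAKi (vertical axis) against that in DMSO (horizontal axis) for the 22019 genes tested in both, as grey points, with 3 gene lists in color and the line of equal change dashed; 11 genes lie outside the axes. Most integrated stress response genes lie below the line, and the DNA replication genes lie mostly where both changes are positive.

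By day 21, part of the called genes lay nearer to their level of day 3 again. The genes called between FAKi day 3 and day 14 that reached 5 CPM in at least 1 of these groups, 198 higher and 372 lower, were placed on a scale between their own day 3 and day 14 means of log2(CPM + 0.5). Since these libraries chose the genes, the positions of other groups are a description. In FAKi at day 21, 26.8% of the genes called higher and 49.5% of those called lower were nearer to day 14 than to day 3. In FAKi at day 7 these shares were 26.3% and 34.9%, but 10.1% and 15.1% without FAKi day 7 replicate 1. In DMSO at day 14 they were 50.5% and 57.8%.

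*ASNS* shows this course. It was at 12.3, 307.1 and 309 CPM in FAKi at day 7 and 268.8, 241 and 229.8 CPM at day 21, so that replicate 1 of day 7 was at the level of day 14 and the other 5 libraries were nearer to day 3. *HMGCS1* was at 339.5, 44.1 and 54 CPM on day 7 and 50.9, 50.99 and 60.1 CPM on day 21, and *PCNA* at 260, 44.7 and 48.9 CPM and 57.9, 47.5 and 45.6 CPM. In both genes only replicate 1 of day 7 was at the level of day 14 among these 6 libraries, and the other 5 libraries of *PCNA* were below all libraries of day 3. Other genes were still apart from day 3 at day 21. *ETV4* was at 35.1, 36.7 and 34.9 CPM at day 21, below every library of FAKi day 3, and *MLPH* at 152.6, 155.2 and 137.4 CPM, all above every library of FAKi day 3. *DDR2*, at 108.3, 111.9 and 146.3 CPM, likewise stayed below all day 3 libraries.

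**Figure D5:**
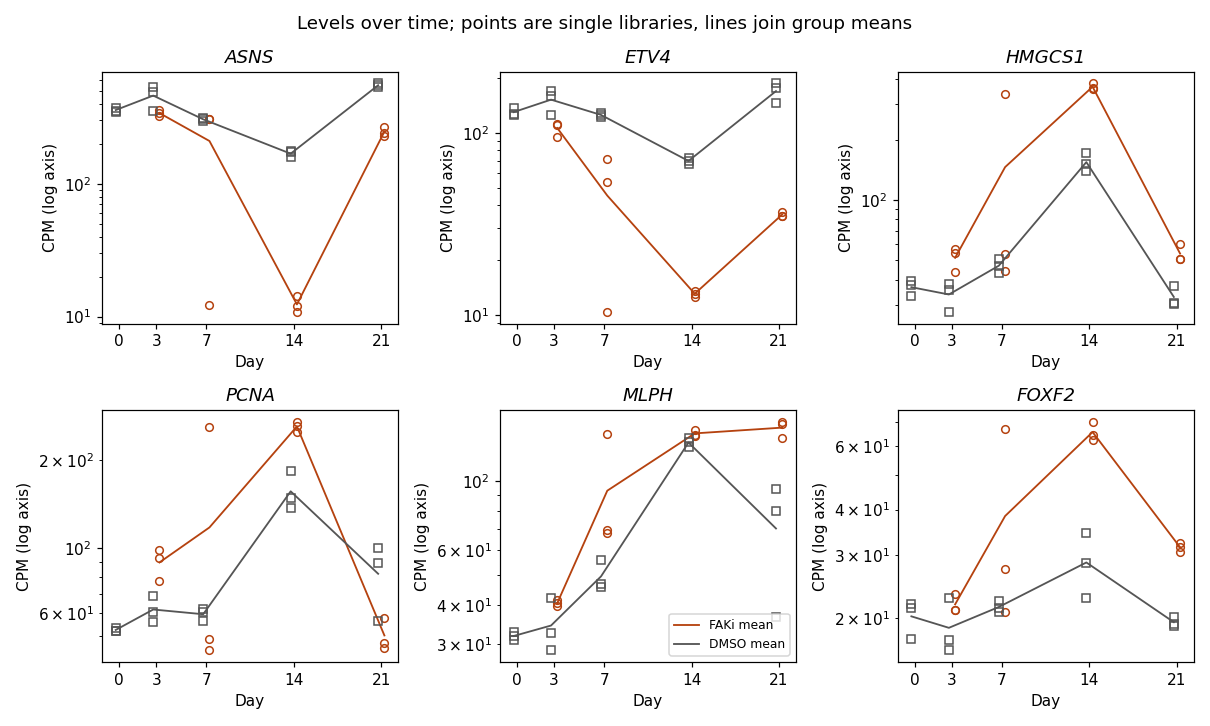
CPM on a log axis of ASNS, ETV4, HMGCS1, PCNA, MLPH and FOXF2 at days 0 (DMSO only), 3, 7, 14 and 21 in FAKi (circles) and DMSO (squares), with each library as a point and lines through the group means. The 3 FAKi libraries of day 14 lie close together in each gene, and a single FAKi library of day 7, replicate 1, lies with them.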

How the data were processed

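RNA of 92.1 cells was sequenced by the authors from TruSeq stranded mRNA libraries. Per the paper's methods and the submitters' processing notes, reads were trimmed with Trim Galore, checked with FastQC 0.11.8, aligned to hg38 with STAR 2.5.3a and counted with HOMER over the exons of GENCODE 39, with a single transcript per gene. Handling of strand and of reads with several positions is not given in the sources used here. The deposited values are raw counts of 61533 genes in 27 libraries, not normalized.

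Counts were analyzed with edgeR 4.0.16 in R 4.3.3. Genes with at least 20 counts over the libraries compared were tested by the quasi-likelihood test after TMM scaling, with Benjamini-Hochberg adjustment over all genes tested. Calls required that the adjusted p did not exceed 0.05 and that the log2 fold change was above 1 or below -1. FAKi day 14 against day 3 and DMSO day 14 against day 3 were fitted on 6 libraries each and their difference as an interaction on 12. CPM were scaled over all 27 libraries, so levels of different genes are not comparable per length. Library totals are given in the report, and their depth limits genes with few counts. The fits were tested on simulated data. The alternatives were other scalings and count filters, DESeq2 1.42.0, a fit of all libraries, the replicate block, thinning, a length correction, other thresholds and leaving out each library.

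The 30 gene lists and the members named were chosen with earlier results of these data known. Named genes were the 8 largest rises and 8 largest falls among called protein-coding genes of at least 5 CPM without overlap, up to 4 called members per list with the smallest p (or the member with the smallest p), *PTK2*, *GNAQ* and 11 genes chosen with earlier results known, the 4 genes with the smallest p for the difference, the 10 lineage markers, and the members of counts of 5 or fewer. Further list members were named after their values were seen, and some genes that the rule or the lists hold are not reported here. Gene positions (hg38) are those of the deposited table, promoters from RefSeq (GRCh38.p14), and exon overlaps from GENCODE 44.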

Additional observations from a re-analysis of the deposited data

Results flagged for a closer look

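The change from day 3 to day 14 differed between FAKi and DMSO in an interaction test over the 12 libraries (edgeR's quasi-likelihood F-test, Benjamini-Hochberg adjusted), which called 1104 of 25523 genes. Of the genes named in the report it called the 57 listed below, and also *TOP2A* and *CENPF*, which are named with the mitosis genes only. Values below are differences of log2 fold changes, FAKi minus DMSO, so that a negative value stands for a gene with the lower value in FAKi. Among the integrated stress response genes and other amino acid genes, the difference was -4.19 for *SLC7A11*, -3.35 for *ASNS*, -3.06 for *ALDH1L2*, -2.72 for *NUPR1*, -2.72 for *CTH*, -2.59 for *CHAC1*, -2.53 for *STC2*, -2.05 for *PSAT1*, -2.00 for *DDIT4*, -1.86 for *GARS1*, -1.85 for *CARS1*, -1.70 for *VEGFA*, -1.69 for *ATF3*, -1.61 for *ATF4*, -1.50 for *MTHFD2*, -1.38 for *WARS1*, -1.21 for *AARS1*, -1.21 for *SESN2*, -1.20 for *DDIT3*, -1.14 for *PPP1R15A*, -1.12 for *SHMT2*, -1.07 for *TRIB3*, -1.06 for *PSPH* and -1.02 for *SLC7A1*. Among the cholesterol synthesis genes, the difference was 1.70 for *SQLE*, 1.56 for *HSD17B7*, 1.42 for *MVD*, 1.41 for *DHCR7*, 1.31 for *MSMO1*, 1.28 for *NSDHL* and 1.11 for *MVK*. Among the ERK output genes, the difference was -1.92 for *ETV4*, -1.48 for *ETV5*, 1.69 for *EGR1*, -1.11 for *SPRED1*, -1.03 for *DUSP6* and -1.002 for *PHLDA1*.

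Among the cell cycle, chromatin and apoptosis genes, the difference was -1.18 for *CDK6*, 1.84 for *H2BC12* and -2.23 for *PMAIP1*. Among the matrix, receptor and TGF-beta or BMP genes, the difference was 5.47 for *NOG*, -2.13 for *DDR2*, -1.65 for *LTBP1*, -1.05 for *BGN*, 1.10 for *ID3* and -1.03 for *DLC1*. Among the melanocyte, mitochondrial, ER and hypoxia genes, the difference was -1.84 for *DCT*, 1.05 for *PMEL*, -1.03 for *SOX5*, -1.41 for *MT-ND6*, 1.04 for *COX8A*, 2.42 for *SDF2L1* and -1.11 for *PDK1*. Among the genes named for their size of change, the difference was -2.94 for *DHRS2*, -2.65 for *MAP1B*, 1.85 for *LFNG* and -1.23 for *L1CAM*.

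Of these 57 genes, 27 lost their call under at least 1 alternative setting or left-out library, among them *PHLDA1*, *SOX5*, *L1CAM*, *MT-ND6* and *SLC7A1* in the most cases. The other 30 were called under every alternative in which they were tested, and a stricter count filter removed some genes with few counts from the test. Groups of 3 libraries were not searched for single outlying samples.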

How the results depend on the processing

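Scaling, filters, tool, fit, thinning to equal depth, a correction for gene length and leaving out the mitochondrial genes kept the number of genes called between FAKi day 14 and day 3 within 1.5 times of 1218, and DESeq2 called 1165. The adjusted p alone gave 6181 genes, and leaving out single libraries gave 938 to 1381. The DMSO count of 2392 became 3917 with all 27 libraries in a single fit, 4535 at the adjusted p alone and 1220 with a stricter limit of 0.01 on the adjusted p, and lay between 1343 and 3481 without single libraries. For the difference, 1104 became 2180 at the adjusted p alone and 368 under the stricter limit, with 550 to 2787 without single libraries. The cause of these shifts was not tested beyond the thresholds' own construction. The replicate numbers did not pair the libraries, with correlations of deviations of 0.0113, 0.00507 and 0.00948 between FAKi libraries of the same number and -0.166, -0.00513 and -0.0491 in DMSO, and a fit with the replicate block called 1188, 1909 and 888 genes in the 3 comparisons. Of 169 named genes between FAKi day 14 and day 3, 26 crossed the threshold or changed sign in at least 1 setting, and 3 changed sign, all uncalled and all only when a library was left out: *DCT* ranged from -0.0194 to 0.242, *MITF* from -0.00385 to 0.0496 and *RGS2* from -0.253 to 0.0099. The share of called genes nearer day 14 at FAKi day 7 became 10.1% (higher) and 15.1% (lower) without replicate 1, an alternative chosen after seeing the data. The median of all genes moved by over 0.1 in 1 case, the DMSO comparison with no count filter (-0.173). Genes with few counts, such as *ABCG1*, *ITGB2* and *FGF21*, are limited by depth, and the day 3 libraries were the shallower ones.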
